A study of Rattus norvegicus with 16 samples.

Results

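The cytochromes P450 of the Cyp2c and Cyp2a subfamilies were followed in rat liver after treatment with 3 dithiolethiones. Their probe sets were chosen by name: every probe set of the array whose platform gene symbol starts with Cyp2c or Cyp2a was taken, also where it carries several symbols. This gave 22 of 8740 probe sets for 11 genes, 17 with a Cyp2c symbol and 5 with a Cyp2a symbol. Of the 22, 18 carry 1 symbol and 4 carry several, and 20 lay high enough to be tested.

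All livers came from male F344 rats, 6 weeks old on arrival, which were singly housed and randomly assigned to 4 groups of 4 arrays. The D3T, OLT and TBD groups received 0.3 mmol/kg of compound by gavage every other day over 5 days (3 doses), and the vehicle group received saturated sucrose on the same days. Livers were taken 24 h after the last dose. The vehicle arrays are titled as livers without treatment, while the treatment text gives them sucrose. D3T is an unsubstituted dithiolethione, OLT (oltipraz) carries a pyrazinyl and a methyl group on that ring, and TBD carries a tert-butyl group. Dithiolethiones are known as inducers of genes controlled by the transcription factor NRF2. Because RNA came from whole liver, fewer cells of a type and less RNA per cell cannot be told apart.

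The liver P450s of these subfamilies oxidise steroids, fatty acids, retinoids and drugs in the endoplasmic reticulum, with electrons from P450 oxidoreductase. In rats many of them differ between the sexes because growth hormone is secreted in pulses in males and almost continuously in females. Pulses activate STAT5B in the hepatocyte and keep male-specific genes such as Cyp2c11 on, whereas the continuous pattern favours Cyp2c12 and Cyp2c7. No female or hormone-treated group was analysed here, so sex dependence and hormone control are background and were not measured.

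The values are log2 expression values, made from the arrays by the GCRMA method, and each difference is compound minus vehicle on this scale, ± SE of the fit. A difference was called when its limma p, two-sided and Benjamini-Hochberg adjusted over all 5323 probe sets tested, was under 0.05. Array medians were 3.27 to 3.58, the arrays of a group had pairwise correlations of 0.983 to 0.997, and OLT replicate 1 and TBD replicate 4 stood apart on the second principal component (13% of the variance). All 20 tested Cyp2c and Cyp2a probe sets lay above the median of every one of the 16 arrays. Markers that define hepatocytes were measured for 9 of 10 genes, with summed linear levels of 175047 to 185865 in D3T livers, 143190 to 178702 in OLT livers, 152237 to 186375 in TBD livers and 152194 to 166331 in vehicle livers. All D3T sums thus lay above the highest vehicle sum. Of the 9 hepatocyte markers, 2 were called higher and 1 lower with D3T, 0 and 1 with OLT, and 0 and 0 with TBD. Kupffer cell and macrophage markers (7 of 10 genes, 0 of them below the median on all arrays) summed to 1165 to 1412 with D3T, 1118 to 1743 with OLT, 1117 to 1694 with TBD and 1860 to 2773 with vehicle, with 3 of 7 genes called lower and 0 higher with each compound. Endothelial markers (5 of 8 genes, 2 of them below the median on all arrays) summed to 198 to 430, 344 to 954, 266 to 511 and 377 to 615 in D3T, OLT, TBD and vehicle livers, and of the 5 tested 2, 0 and 1 were called lower with D3T, OLT and TBD and 0 higher. Stellate cell markers (8 of 10 genes, 4 below) summed to 4063 to 5340, 4181 to 6796, 4756 to 6884 and 4010 to 5270. Of the 4 stellate markers tested, 2, 1 and 2 were called lower with D3T, OLT and TBD and 0 higher, and the brightest of them, Sparc, was not called. The part of these cells in the P450 results was not tested. Over all genes tested, 4.61%, 2.61% and 2.8% were called higher and 13.1%, 8.92% and 10% lower with D3T, OLT and TBD. Of the bile duct markers 3 of 4 and of the red blood cell markers 2 of 3 lay below the median on all arrays.

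Cyp2a1, Cyp2c7 and Cyp2c11 are the 3 fixed genes with a called change against vehicle in a probe set of their own. For Cyp2c11 this was M18363cds_s_at with D3T alone, and its other probe sets were not called. Their promoters are shown as the 250 bases before the RefSeq start of the gene (assembly GRCr8, 5′ to 3′ on the gene's strand). Capitals mark the letters of short motifs searched on both strands, which did not overlap one another.
Cyp2a1, chr1:91359028-91359277, plus strand: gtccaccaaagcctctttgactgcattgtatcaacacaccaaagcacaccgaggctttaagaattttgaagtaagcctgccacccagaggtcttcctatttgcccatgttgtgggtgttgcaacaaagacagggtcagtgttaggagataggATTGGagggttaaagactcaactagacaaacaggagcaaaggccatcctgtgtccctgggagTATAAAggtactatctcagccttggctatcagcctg
Cyp2c7, chr1:247966144-247966393, plus strand: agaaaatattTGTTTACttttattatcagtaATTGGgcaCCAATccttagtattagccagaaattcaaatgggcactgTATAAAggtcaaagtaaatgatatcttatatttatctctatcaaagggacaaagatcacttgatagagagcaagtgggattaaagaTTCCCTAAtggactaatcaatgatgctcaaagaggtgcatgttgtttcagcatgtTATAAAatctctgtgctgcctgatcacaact
Cyp2c11, chr1:246174966-246175215, plus strand: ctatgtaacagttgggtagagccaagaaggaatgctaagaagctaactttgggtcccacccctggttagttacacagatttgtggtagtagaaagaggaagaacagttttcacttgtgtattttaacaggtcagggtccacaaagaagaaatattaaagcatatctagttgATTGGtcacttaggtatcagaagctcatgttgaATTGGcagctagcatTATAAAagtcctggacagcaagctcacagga

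Each of these windows holds the letters TATAAA close to the start. The match begins 36 bases before it in Cyp2a1 and 31 bases before it in Cyp2c7 and Cyp2c11. The Cyp2c7 window holds a further TATAAA, which begins 172 bases before the start. Of all 33469 promoters in the table, 12.9% hold TATAAA. The CCAAT letters, or their reverse complement ATTGG, were found once in Cyp2a1, at 98 bases before the start, and at 79 and 46 bases in Cyp2c11. In Cyp2c7 they were found at 219 and 211 bases, and 34% of all promoters hold them. The Cyp2c7 window alone among the 3 also holds the FOXA-type letters TGTTTAC (240 bases before the start; 3.21% of all promoters) and a C/EBP-type match to TTNNGNAA (86 bases; 37.2%). The letters searched for STAT5 (TTCNNNGAA, 7.67% of all promoters), for the core of the antioxidant response element (TGACNNNGC, 10.1%) and for HNF4 (CAAAGTCCA, 0.338%) were not found in these 3 windows. Promoters of 8 of the 11 genes were in the table, and Cyp2a2, Cyp2c6v1 and Cyp2c7l1 were not.

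Against vehicle, D3T changed 5 of the 20 tested probe sets, 2 higher and 3 lower. Over all 5323 probe sets tested, 18.4% were called with D3T, 6.18% higher and 12.2% lower. OLT changed 3 of the 20, all 3 higher, where 11.3% of all probe sets were called, 3.38% higher and 7.89% lower. TBD changed 3 of the 20, 2 higher and 1 lower, where 13% of all probe sets were called, 3.55% higher and 9.47% lower. The median difference of the 20 probe sets was -0.15 with D3T, -0.04 with OLT and -0.11 with TBD, beside medians over all tested probe sets of 0.04, -0.03 and -0.02. The counts moved with single vehicle and treated arrays. Leaving out vehicle replicate 3 or 4 or D3T replicate 3 left 2 called with D3T, both higher. Leaving out vehicle replicate 2 or D3T replicate 1 or 4 left 3, 2 higher and 1 lower. Without vehicle replicate 1, 3 were called with D3T, all higher: 2 of the 5 and, newly, Cyp2c12 J03786_s_at. Leaving out vehicle replicate 3 gave 5 with TBD. In all, 6 probe sets were called with at least 1 compound, 14 with none, and only Cyp2a1's own probe set with all 3. At an unadjusted p under 0.05, 9, 4 and 8 of the 20 passed with D3T, OLT and TBD, beside 30.8%, 23.1% and 24.3% of all probe sets.

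**Figure D1:**
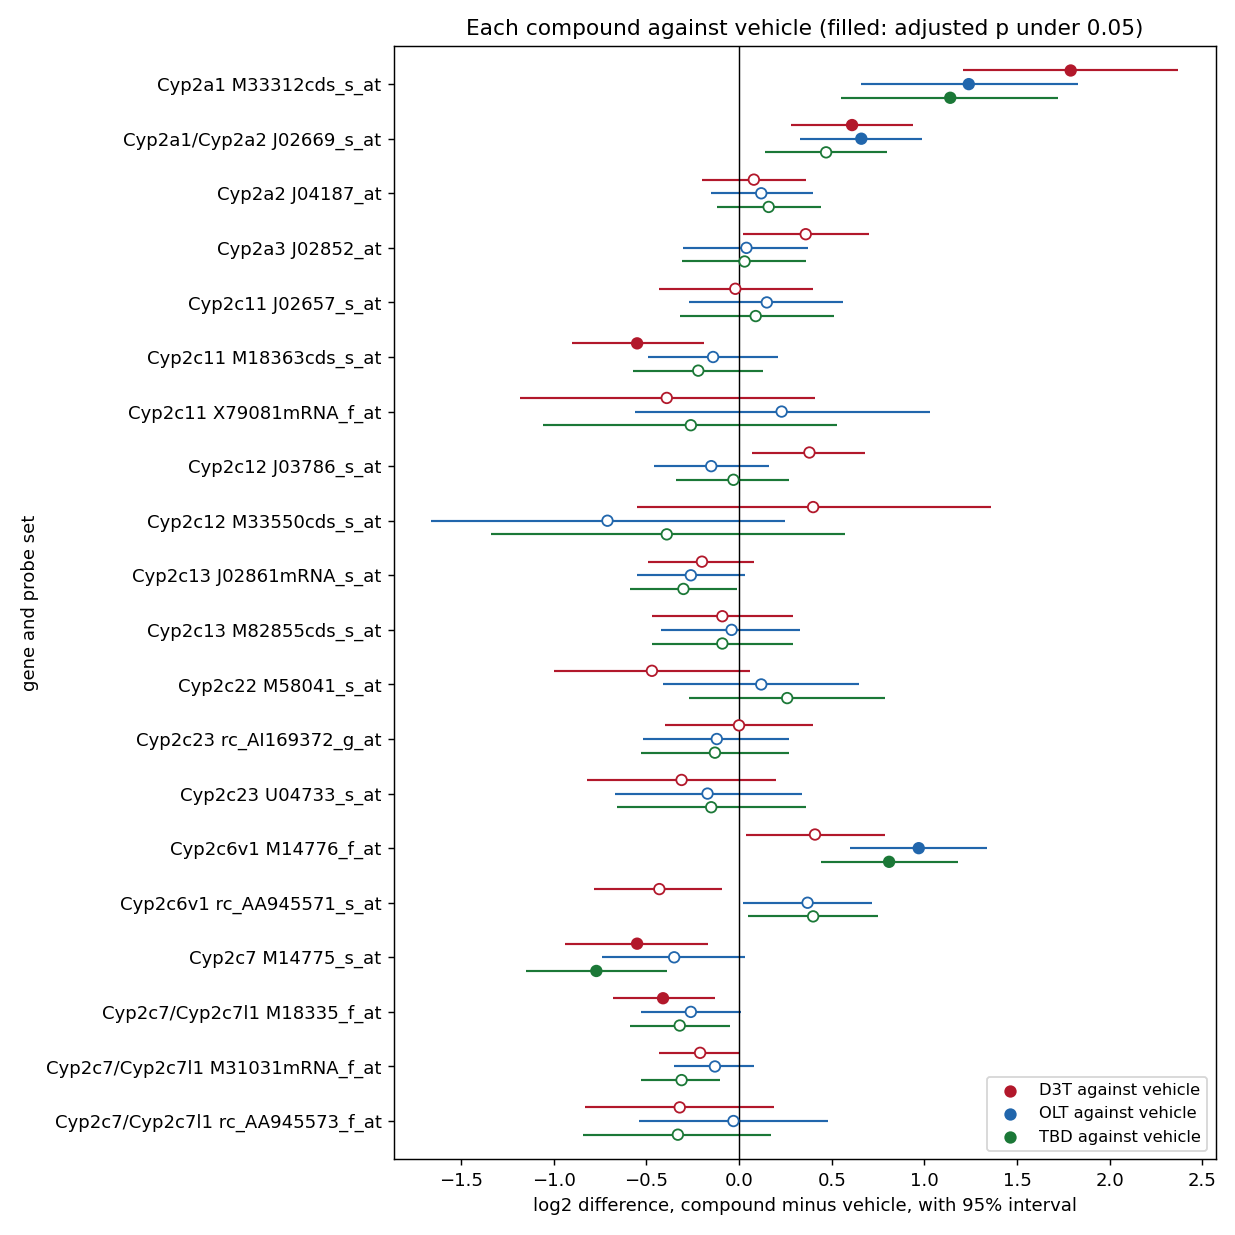
Log2 difference from vehicle (x axis) of the 20 tested Cyp2c and Cyp2a probe sets (y axis) with D3T, OLT and TBD. Points are fitted differences with 95% intervals, and filled points have an adjusted p under 0.05. Cyp2a1 lies to the right with all 3 compounds (1.79, 1.24 and 1.14), and the Cyp2c7 and Cyp2c11 probe sets that were called lie to the left of 0.

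Cyp2a1, a testosterone hydroxylase that is more abundant in female than in male rat liver, rose with all 3 compounds. Its probe set M33312cds_s_at read 9.18, 9.12, 8.95 and 9.47 in the 4 D3T livers. The OLT livers read 9.27, 8.25, 8.45 and 8.58, and the TBD livers 8.55, 9.25, 7.74 and 8.58. The vehicle livers read 7.03, 7.52, 7.50 and 7.52. Every treated liver was above every vehicle liver, and the D3T livers lay closest together among the treated ones. The group means were 9.18 ± 0.21 with D3T, 8.64 ± 0.44 with OLT, 8.53 ± 0.62 with TBD and 7.39 ± 0.24 with vehicle (SD, n = 4 each). The rise was 1.79 ± 0.27 with D3T (3.45-fold, limma adjusted p = 5.25e-04), 1.24 ± 0.27 with OLT (2.37-fold, adjusted p = 0.00877) and 1.14 ± 0.27 with TBD (2.2-fold, adjusted p = 0.0129). Leaving out any 1 array of the groups compared kept these 3 calls. Cyp2a1 was higher by 0.65 in D3T than in TBD livers (95% interval 0.07 to 1.23, adjusted p = 0.415) and by 0.54 in D3T than in OLT livers (-0.04 to 1.13, adjusted p = 0.45), and neither difference passed the test. TBD minus OLT was -0.11 (-0.69 to 0.48).

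A further probe set, J02669_s_at, carries the symbols of both Cyp2a1 and Cyp2a2. It read 10.49, 10.58, 10.17 and 10.53 in D3T livers and 10.81, 10.41, 10.17 and 10.59 in OLT livers. It read 10.38, 10.62, 10.05 and 10.17 in TBD livers and 9.76, 9.76, 9.72 and 10.09 in vehicle livers. The D3T and OLT groups lay wholly above vehicle, while the lowest TBD liver lay below the highest vehicle liver. The rise was 0.61 ± 0.15 with D3T (1.53-fold, limma adjusted p = 0.0127) and 0.66 ± 0.15 with OLT (1.58-fold, adjusted p = 0.012). With TBD the difference was 0.47 ± 0.15 (95% interval 0.14 to 0.80, adjusted p = 0.058). Without vehicle replicate 4 it was 0.56 (adjusted p = 0.0453), and without TBD replicate 3 it was 0.56 (adjusted p = 0.0412), both past the threshold.

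Cyp2a2, a steroid hydroxylase found mainly in male rat liver, was not called with any compound. Its own probe set J04187_at read 12.10, 12.01, 11.89 and 11.78 in D3T livers and 11.89, 12.02, 12.09 and 11.98 in OLT livers. It read 11.90, 12.37, 12.03 and 11.80 in TBD livers and 12.04, 11.54, 12.00 and 11.90 in vehicle livers, and all groups overlap. The differences were 0.08 with D3T (95% interval -0.20 to 0.36, limma adjusted p = 0.735), 0.12 with OLT (-0.15 to 0.40, adjusted p = 0.768) and 0.16 with TBD (-0.12 to 0.44, adjusted p = 0.589). Together these intervals run from -0.20 to 0.44 on the log2 scale. The difference between the Cyp2a1 and Cyp2a2 responses was not tested, since it sets 1 probe set against another.

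Cyp2a3, known in rats from lung and nasal tissue, had 1 tested probe set, J02852_at, with means of 4.35 ± 0.38 in D3T, 4.03 ± 0.15 in OLT, 4.02 ± 0.07 in TBD and 3.99 ± 0.20 in vehicle livers. It was not called with any compound (D3T 0.36, 95% interval 0.02 to 0.70, limma adjusted p = 0.133). Its other probe set read 2.06 to 2.38 over the 16 arrays and was too dim to test. Cyp2a1, Cyp2a2 and Cyp2a3 stand next to one another on chromosome 1 in the reference table, between Cyp2g1 and Cyp2f4. Those 2 neighbours were not called with any compound. Cyp2g1 lay below the median of all 16 arrays, so that a fall of it could hardly have been seen.

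**Figure D2:**
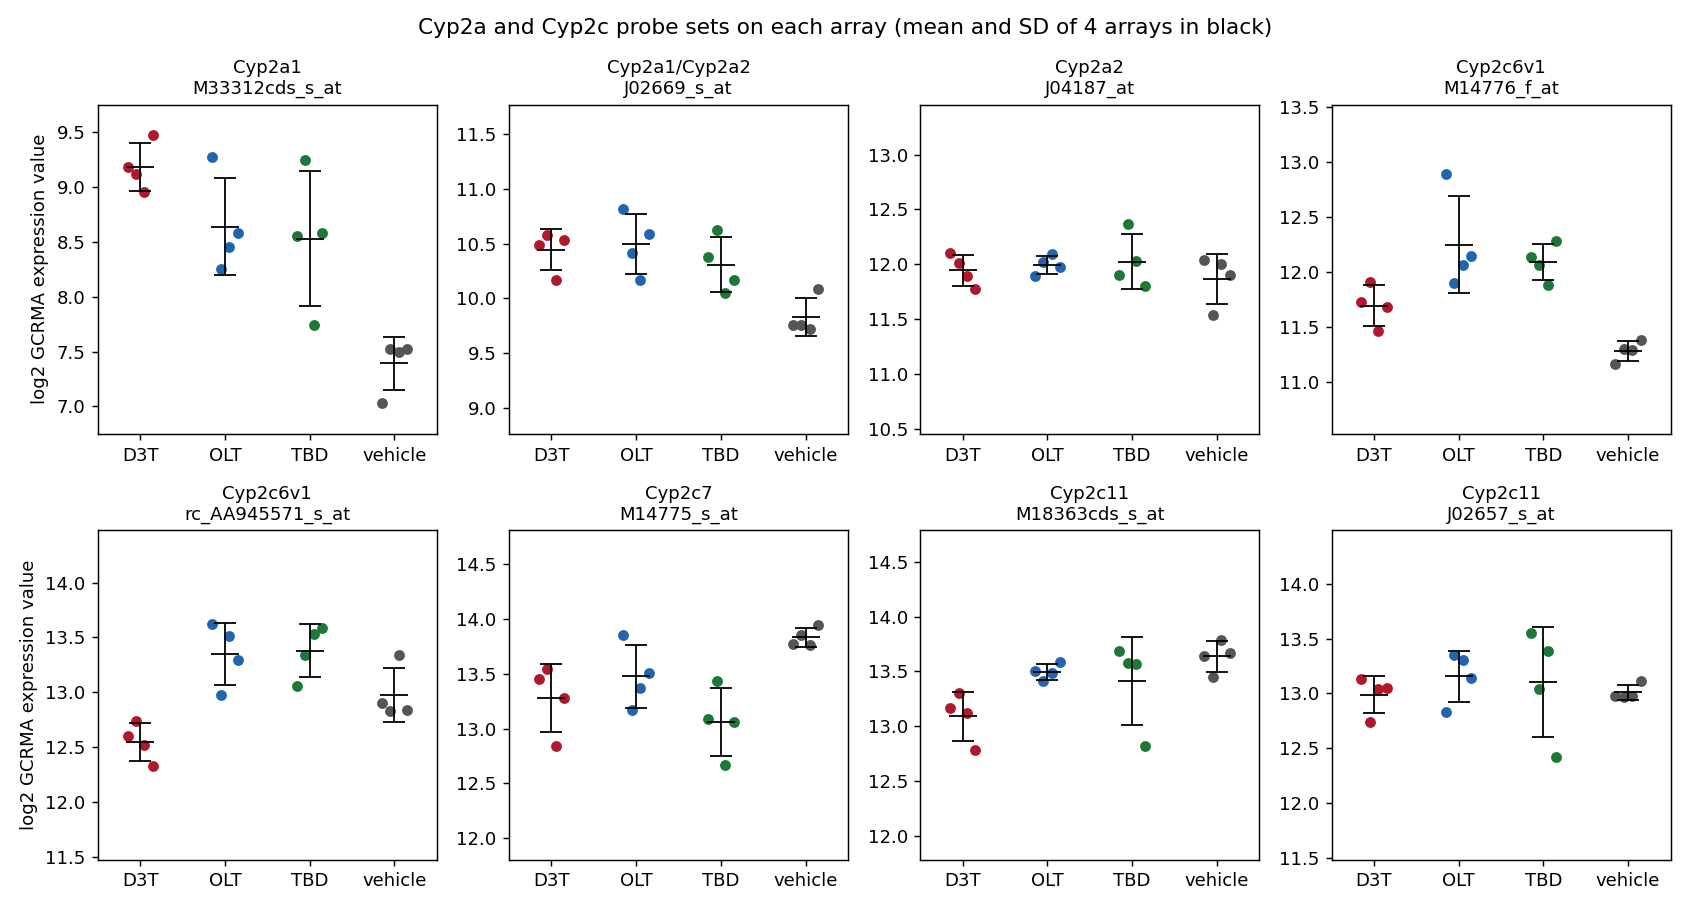
Log2 expression value of each array (y axis, every panel spanning 3 log2 units) for Cyp2a1, Cyp2a2, Cyp2c7, Cyp2c11 and Cyp2c6v1 probe sets in the D3T, OLT, TBD and vehicle groups. Points are arrays and lines are group means with SD. The 4 vehicle livers of Cyp2a1 lie between 7.03 and 7.52, below all 12 treated livers, and those of Cyp2c7 between 13.76 and 13.94.

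Cyp2c7, a retinoic acid hydroxylase that is more abundant in female rat liver, fell with D3T and with TBD. Its own probe set M14775_s_at read 13.45, 13.54, 12.84 and 13.28 in D3T livers, and 13.85, 13.17, 13.37 and 13.51 in OLT livers. It read 13.09, 13.43, 12.67 and 13.06 in TBD livers, and 13.77, 13.85, 13.76 and 13.94 in vehicle livers. All D3T and TBD livers were below all vehicle livers, while OLT replicate 1 lay within the vehicle range. The fall was -0.55 ± 0.18 with D3T (1.47-fold lower, limma adjusted p = 0.0437) and -0.77 ± 0.18 with TBD (1.7-fold lower, adjusted p = 0.0109). OLT differed by -0.35 (95% interval -0.74 to 0.03, adjusted p = 0.259). The D3T call was lost without any 1 of the 4 vehicle arrays or without D3T replicate 1, 3 or 4. The D3T differences were then -0.61 to -0.41, with limma adjusted p of 0.056 to 0.136. The TBD call kept its side of the threshold without each single TBD or vehicle array.

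The other 3 probe sets of this gene are shared with its close copy Cyp2c7l1, and all their mean differences were below 0. M18335_f_at read 12.63, 12.11, 12.36 and 12.67 in D3T livers and 12.52, 12.55, 12.64 and 12.65 in OLT livers. Its TBD livers read 12.61, 12.73, 12.56 and 12.20, and the vehicle livers 12.95, 12.77, 12.77 and 12.90, so that each treated group lay below vehicle with no overlap. It fell with D3T (-0.41 ± 0.13, 1.33-fold lower, limma adjusted p = 0.0389), and its values of -0.26 with OLT (adjusted p = 0.246) and -0.32 with TBD (adjusted p = 0.124) did not pass. The D3T call was lost without any 1 vehicle array or without D3T replicate 2 or 3 (-0.43 to -0.30, adjusted p of 0.0534 to 0.116). M31031mRNA_f_at differed by -0.21, -0.13 and -0.31 with D3T, OLT and TBD, the last with an adjusted p of 0.0561 (0.0431 without vehicle replicate 3, and 0.0317 after quantile normalization was run again). For rc_AA945573_f_at the differences were -0.32, -0.03 and -0.33, and none passed. With array weights its D3T difference was -0.51 (adjusted p = 0.0127).

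Cyp2c11, the main male-specific testosterone hydroxylase of rat liver, had 3 probe sets, and 1 of them fell with D3T. M18363cds_s_at read 13.17, 13.30, 13.12 and 12.78 in D3T livers, and 13.50, 13.41, 13.49 and 13.59 in OLT livers. It read 13.69, 13.58, 13.57 and 12.82 in TBD livers, and 13.64, 13.45, 13.79 and 13.67 in vehicle livers. The D3T livers were all below the vehicle livers, whereas only TBD replicate 4 stood low in its group. The fall with D3T was -0.55 ± 0.16 (1.46-fold lower, limma adjusted p = 0.032). The differences with OLT (-0.14, 95% interval -0.49 to 0.21) and TBD (-0.22, -0.57 to 0.13) did not pass. The D3T call was lost without vehicle replicate 1, 3 or 4 or without D3T replicate 1, 3 or 4 (-0.57 to -0.44, adjusted p of 0.0506 to 0.103).

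The other Cyp2c11 probe sets did not pass with any compound. J02657_s_at read 13.13, 12.74, 13.04 and 13.05 in D3T livers, and 12.83, 13.35, 13.30 and 13.14 in OLT livers. It read 13.55, 13.04, 13.39 and 12.42 in TBD livers, and 12.98, 12.97, 12.98 and 13.11 in vehicle livers, so that every treated group spans the vehicle values. Its differences were -0.02 with D3T (95% interval -0.43 to 0.40), 0.15 with OLT (-0.27 to 0.56) and 0.09 with TBD (-0.32 to 0.51). X79081mRNA_f_at averaged 9.28 ± 0.46 in D3T, 9.90 ± 0.20 in OLT, 9.41 ± 0.96 in TBD and 9.67 ± 0.36 in vehicle livers, with a D3T difference of -0.39 (-1.18 to 0.41). The fall of Cyp2c11 with D3T therefore rests on 1 of its 3 probe sets.

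Cyp2c6v1 belongs to the Cyp2c6 group, which is present in both sexes and is known in rats to respond to phenobarbital. Its 2 probe sets differed. M14776_f_at read 11.73, 11.91, 11.46 and 11.68 in D3T livers and 12.89, 11.90, 12.06 and 12.15 in OLT livers. It read 12.14, 12.06, 11.88 and 12.28 in TBD livers and 11.16, 11.30, 11.29 and 11.38 in vehicle livers. Each treated group lay above all vehicle livers. The rise was 0.97 ± 0.17 with OLT (1.95-fold, limma adjusted p = 0.00253) and 0.81 ± 0.17 with TBD (1.75-fold, adjusted p = 0.00649). D3T gave 0.41 ± 0.17, which did not pass (95% interval 0.04 to 0.79, adjusted p = 0.117). The OLT and TBD calls were kept without each single array of the groups compared. The D3T value passed when OLT replicate 1 and TBD replicate 4 were left out of the fit (0.41, adjusted p = 0.013).

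The second Cyp2c6v1 probe set, rc_AA945571_s_at, set D3T apart from the other compounds. It read 12.60, 12.74, 12.52 and 12.33 in D3T livers and 13.62, 12.98, 13.51 and 13.29 in OLT livers. It read 13.06, 13.34, 13.53 and 13.59 in TBD livers and 12.90, 12.83, 13.34 and 12.84 in vehicle livers. The D3T livers lay below all livers of the other 3 groups. Against vehicle the values were -0.43 with D3T (95% interval -0.78 to -0.09, limma adjusted p = 0.0803), 0.37 with OLT (0.02 to 0.72, adjusted p = 0.177) and 0.40 with TBD (0.05 to 0.75, adjusted p = 0.131), and none passed. Without vehicle replicate 3 the TBD difference was 0.52 and passed (adjusted p = 0.0476). With array weights, which were estimated without full convergence, the D3T difference was -0.75 and passed (limma adjusted p = 2.09e-05). That of M14776_f_at was then 0.39 and also passed (adjusted p = 0.0017). The D3T difference of rc_AA945571_s_at is thus below 0 where that of M14776_f_at is above 0.

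Between compounds, at the same dose and time, 3 pairs were compared over all 20 tested probe sets. The pair D3T and OLT had 1 called, where 1.07% of all probe sets were called, and the pair D3T and TBD had 1, beside 0.658%. TBD against OLT had 0 by limma, beside 0.0564% (1 of the 20 and 2.72% of all probe sets at an unadjusted p under 0.05, and 0 of the 20 with the replicate number as a block). The called probe set was rc_AA945571_s_at of Cyp2c6v1 in both. It was lower in D3T than in OLT livers by -0.80 ± 0.16 (1.74-fold, 95% interval -1.15 to -0.46, limma adjusted p = 0.0272) and lower in D3T than in TBD livers by -0.83 ± 0.16 (1.78-fold, -1.18 to -0.49, adjusted p = 0.0328). Without D3T replicate 1, 3 or 4 or OLT replicate 1, 3 or 4 the first call was lost (-0.82 to -0.71, adjusted p of 0.0676 to 0.0889). The second was lost without D3T replicate 1, 3 or 4 or TBD replicate 2, 3 or 4 (-0.85 to -0.76, adjusted p of 0.0639 to 0.106). Without OLT replicate 1 and TBD replicate 4 together, the 2 arrays that stand apart, 0 probe sets were called in either pair. Both comparisons share the D3T arrays.

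The remaining pairs of values between compounds did not pass, and their intervals bound the differences. For Cyp2c6v1 M14776_f_at, D3T minus OLT was -0.55 (95% interval -0.92 to -0.18, limma adjusted p = 0.175) and D3T minus TBD was -0.40 (-0.77 to -0.02, adjusted p = 0.446). The Cyp2c7 probe set M14775_s_at gave -0.20 for D3T minus OLT (-0.58 to 0.18), 0.21 for D3T minus TBD (-0.17 to 0.60) and -0.41 for TBD minus OLT (-0.80 to -0.03, adjusted p = 1). The Cyp2c11 probe set M18363cds_s_at gave -0.40 for D3T minus OLT (-0.76 to -0.05, adjusted p = 0.325), with D3T livers wholly below OLT livers, and -0.32 for D3T minus TBD (-0.68 to 0.03). For Cyp2a2 the 3 pairs lay between -0.08 and 0.03, with intervals from -0.36 to 0.31.

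**Figure D3:**
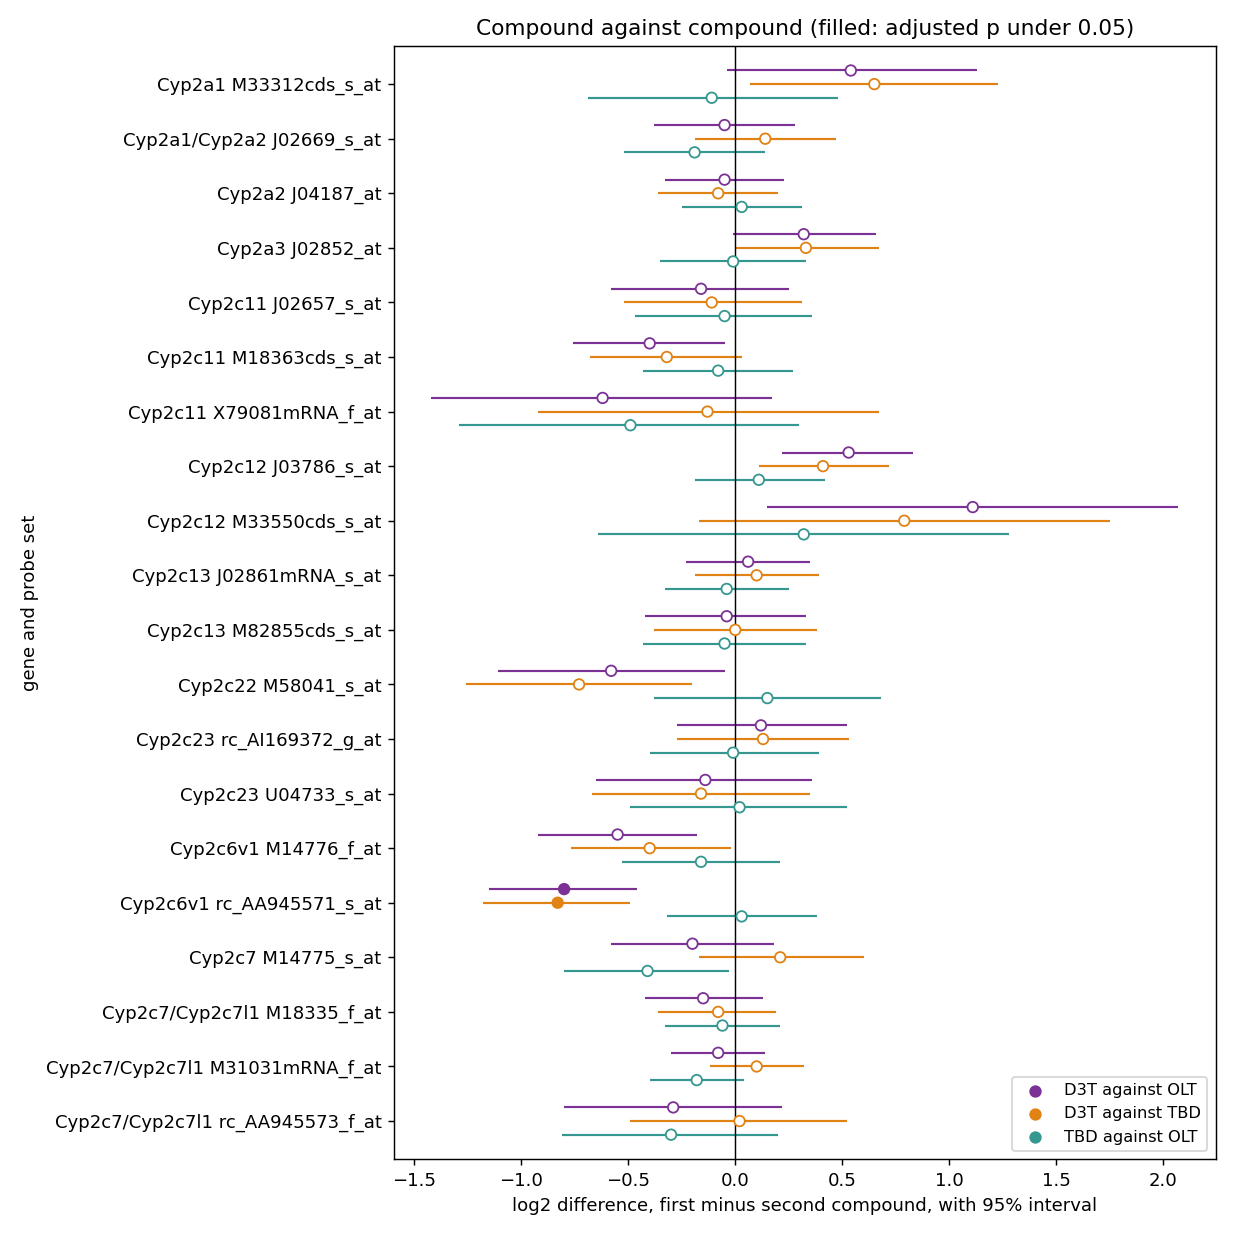
Log2 difference between compounds (x axis, first minus second compound) of the 20 tested Cyp2c and Cyp2a probe sets (y axis), with 95% intervals. Filled points have an adjusted p under 0.05: only rc_AA945571_s_at of Cyp2c6v1 is filled, at -0.80 for D3T against OLT and -0.83 for D3T against TBD.

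Cyp2c12, the female-specific hydroxylase of steroid sulphates, had 2 probe sets in these male livers, and neither was called. M33550cds_s_at averaged 5.65 ± 0.94 in D3T, 4.54 ± 0.31 in OLT, 4.86 ± 0.61 in TBD and 5.25 ± 0.74 in vehicle livers. D3T replicate 1 stood highest of all 16 arrays, and the other 3 D3T livers read 4.83 to 5.47. The vehicle livers read 4.49 to 6.21, so that the groups overlap. J03786_s_at differed from vehicle by 0.38 with D3T (95% interval 0.07 to 0.68, limma adjusted p = 0.0844), -0.15 with OLT and -0.03 with TBD. Without vehicle replicate 1 the D3T difference was 0.47 and passed (adjusted p = 0.0357). Its D3T livers (4.87 to 5.33) lay above the OLT livers (4.21 to 4.77) and the TBD livers (4.52 to 4.68) without overlap, by 0.53 (adjusted p = 0.111) and 0.41 (adjusted p = 0.307).

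Cyp2c13, a male-specific steroid hydroxylase, had 2 probe sets with no call. M82855cds_s_at differed from vehicle by -0.09, -0.04 and -0.09 with D3T, OLT and TBD. J02861mRNA_s_at differed by -0.20, -0.26 and -0.30, and its 4 TBD livers (12.02 to 12.18) lay below the 4 vehicle livers (12.23 to 12.57) with a limma adjusted p of 0.178. Cyp2c22, listed with the synonym Cyp2c70, whose mouse counterpart makes muricholic bile acids, differed by -0.47 ± 0.25 with D3T (limma adjusted p = 0.221), 0.12 with OLT and 0.26 with TBD. Its D3T livers lay below its TBD livers without overlap (-0.73, -1.26 to -0.20, adjusted p = 0.29). Cyp2c23, an arachidonic acid epoxygenase, had 2 tested probe sets with differences between -0.31 and 0.00 and no call, and its dimmest probe set read 2.19 to 2.54 and was too dim to test. In the reference table Cyp2c6v1 and Cyp2c7 are neighbours on chromosome 1, and Cyp2c7l1, Cyp2c12, Cyp2c13 and Cyp2c22 follow one another there. Cyp2c6v1 had called rises and Cyp2c7 called falls, while Cyp2c12, Cyp2c13 and Cyp2c22 had no call. For the 14 probe sets called with no compound, the 95% intervals against vehicle reached from -1.66 to 1.36.

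In the list of growth hormone signalling genes and liver genes set beside them, all called genes were lower, and no gene was called higher. Whether growth hormone had a part in any of these changes, and which liver cells they came from, was not tested. Of 17 genes listed, 16 are on the array with 1 symbol and 13 were tested. With D3T 0 of the 13 rose and 5 fell, with OLT 0 and 3, and with TBD 0 and 3. The 5 with D3T were Igf1, Igfals, Igfbp1, Igfbp3 and Egfr, the 3 with OLT Igfbp1, Igfbp3 and Egfr, and the 3 with TBD Igf1, Igfbp1 and Igfbp3. Over all 3104 genes tested, 4.61% were higher and 13.1% lower with D3T, 2.61% and 8.92% with OLT, and 2.8% and 10% with TBD. The medians of the list were -0.01, -0.11 and -0.08, beside 0.03, -0.03 and -0.02 over all genes. Ghr, the growth hormone receptor, differed by 0.26, 0.37 and 0.44 with D3T, OLT and TBD (limma adjusted p of 0.465, 0.365 and 0.247). Stat5b, whose protein carries the pulse signal, differed by 0.02, 0.01 and 0.02, with a probe set below the median of all 16 arrays. Socs2, a feedback inhibitor of the receptor, differed by -0.07, -0.23 and -0.22, and Cish, another inhibitor, was too dim to test. Stat5a also lay below the median of all 16 arrays. The group means of Socs2 (3.46 to 3.69) and Jak2 (3.69 to 3.80) were close to the array medians of 3.27 to 3.58. A fall of these dim signalling genes could hardly have been seen.

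Of the genes called lower in this list, Igf1 is the growth factor that liver secretes in response to growth hormone. It fell with D3T (-1.08, limma adjusted p = 0.0127) and with TBD (-0.90, adjusted p = 0.042), and its OLT difference was -0.37 (adjusted p = 0.541). The TBD call for Igf1 was lost without any 1 vehicle array or without TBD replicate 2 or 4 (adjusted p of up to 0.0932). Igfals, which makes the carrier of circulating IGF1 and was named after its value was seen, fell with D3T (-1.04, adjusted p = 0.0151; up to 0.0523 without D3T replicate 3 or 4). The IGF-binding protein gene Igfbp3 differed by -2.65, -1.71 and -1.73 (adjusted p of 7.98e-04, 0.0187 and 0.0156), and Igfbp1 by -1.73, -1.55 and -1.68 (adjusted p of 0.00952, 0.0249 and 0.0146). Egfr, the epidermal growth factor receptor, fell with D3T (-1.70, adjusted p = 0.00832) and OLT (-1.43, adjusted p = 0.0295). The OLT calls of Igfbp3, Igfbp1 and Egfr were lost without vehicle replicate 2 or 4 or OLT replicate 2 or 3 (adjusted p of up to 0.0682, 0.0851 and 0.0953). The TBD calls were lost without vehicle replicate 2 for Igfbp3 and Igfbp1 (adjusted p of 0.0588 and 0.0537), and also without TBD replicate 2 for Igfbp3.

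Of 16 listed male-predominant genes outside the 2 subfamilies, 8 were tested. With D3T 0 rose and 5 fell, with OLT 0 rose and 1 fell, and with TBD 1 rose and 3 fell. Over all genes tested, 4.61%, 2.61% and 2.8% were called higher and 13.1%, 8.92% and 10% lower with D3T, OLT and TBD. The list medians were -0.88, -0.26 and -0.52. Cyp3a2, the male-specific member of the Cyp3a subfamily, read 11.14, 11.41, 10.77 and 10.64 in D3T livers, against 13.35, 13.95, 13.45 and 13.70 in vehicle livers, a difference of -2.62 ± 0.19 (limma adjusted p = 1.35e-06). OLT (-0.22, adjusted p = 0.665) and TBD (-0.46, adjusted p = 0.15) did not pass. D3T livers were also lower in Cyp3a2 than OLT livers (-2.40, adjusted p = 1.23e-05) and TBD livers (-2.16, adjusted p = 1.01e-04). Slco1a1, an organic anion transporter, fell with all 3 compounds (-2.22, -1.69 and -2.24, adjusted p of 1.10e-05, 1.71e-04 and 1.91e-05). Car3, a carbonic anhydrase, fell with D3T (-1.39, adjusted p = 0.0177) and TBD (-1.24, adjusted p = 0.0417), and the D3T call was lost without D3T replicate 4 (-1.04, adjusted p = 0.0535) and the TBD call without any 1 vehicle array or TBD replicate 3 or 4 (adjusted p of up to 0.104). Sult1c3, a sulphotransferase, fell with D3T (-0.97, adjusted p = 4.43e-04) and TBD (-0.58, adjusted p = 0.0154). Cyp3a18, which fell with D3T (-0.78, adjusted p = 0.0183), and Hsd11b1, which rose with TBD (0.41, adjusted p = 0.0483), were named after their values were seen. The first call was lost without vehicle replicate 2 or 3 or D3T replicate 1 (adjusted p of up to 0.0584), and the second without vehicle replicate 1, 3 or 4 or TBD replicate 1, 2 or 4 (adjusted p of up to 0.122).

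The female-predominant list had 4 of 8 genes tested, and 0 rose and 2 fell with each compound. The genes that fell were Sult2a1 and Sult2a2, hydroxysteroid sulphotransferases. Sult2a1 differed by -2.80, -1.45 and -2.43 with D3T, OLT and TBD (limma adjusted p of 2.46e-04, 0.0237 and 9.12e-04), and Sult2a2 by -2.02, -1.32 and -2.03 (adjusted p of 8.81e-04, 0.0189 and 0.00116). The OLT calls of both were lost without OLT replicate 2 (adjusted p of 0.067 and 0.0554), and that of Sult2a1 also without vehicle replicate 2 or 4 or OLT replicate 4. Among all genes tested most calls were lower as well, with 407 lower and 143 higher with D3T, 277 and 81 with OLT, and 311 and 87 with TBD. Cyp2a1 was called higher with each compound, and Cyp2a2 was not called.

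**Figure D4:**
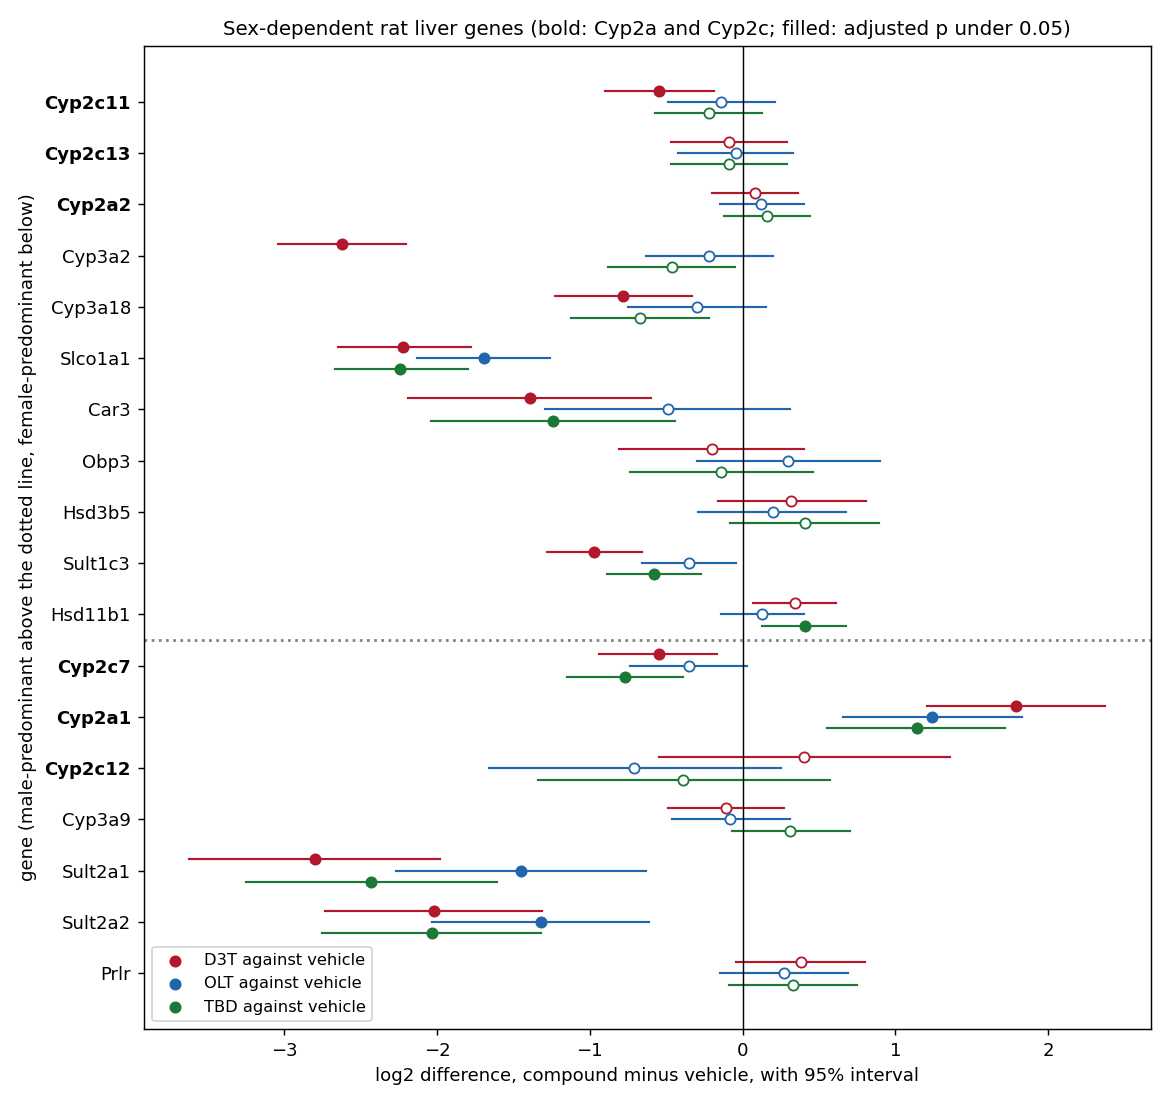
Log2 difference from vehicle (x axis, points with 95% intervals) with D3T, OLT and TBD for the sex-dependent Cyp2a and Cyp2c genes (bold) and the listed male- and female-predominant genes of rat liver (y axis, split by a dotted line), each by its brightest tested probe set. Filled points have an adjusted p under 0.05. Slco1a1, Sult2a1 and Sult2a2 are filled and below 0 with all 3 compounds, Cyp2a1 is filled and above 0 with all 3, and Cyp3a2 is filled with D3T alone.

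Among 25 listed transcription factors and nuclear receptors that act on P450 genes, 14 were tested. With D3T 1 rose and 2 fell, with OLT 1 and 3, and with TBD 0 and 4. Over all genes tested, 4.61%, 2.61% and 2.8% were called higher and 13.1%, 8.92% and 10% lower with D3T, OLT and TBD. The list medians were 0.04, -0.09 and -0.02. Cebpb, a C/EBP factor, fell with all 3 compounds (-0.87, -1.31 and -1.04, limma adjusted p of 0.0159, 0.00217 and 0.00773). Foxa3, a liver forkhead factor, also fell with all 3 (-0.89, -0.88 and -0.90, adjusted p of 0.014, 0.022 and 0.0172), and its OLT call was lost without vehicle replicate 2, 3 or 4 or OLT replicate 1 (adjusted p of up to 0.0734), its TBD call without vehicle replicate 2 or 4 or TBD replicate 1 or 2 (up to 0.0598). Cebpa rose with D3T (0.63, adjusted p = 0.0106). Nr0b2, the repressor SHP, fell with OLT (-1.50, adjusted p = 0.0254) and TBD (-1.71, adjusted p = 0.0115), and Dbp, a clock-controlled factor, fell with TBD (-2.39, adjusted p = 0.00837). The OLT call of Nr0b2 was lost without vehicle replicate 1 or 4 or OLT replicate 2 or 4 (adjusted p of up to 0.0818). Nr1h4, the bile acid receptor, rose with OLT (0.32, adjusted p = 0.0237; up to 0.0689 without vehicle replicate 3 or 4 or OLT replicate 4) and was named after its value was seen. Hnf4a, a nuclear receptor of hepatocytes, differed by 0.97, 0.54 and 0.23 and did not pass (adjusted p of 0.1, 0.516 and 0.951). No value is given for Nr1i2 (PXR) and Nr1i3 (CAR), which were not among the probe sets with 1 symbol.

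The electron donors and heme supply list had 11 of 15 genes tested. With D3T 0 rose and 1 fell, with OLT 0 and 3, and with TBD 0 and 2. Over all genes tested, 13.1%, 8.92% and 10% were called lower with D3T, OLT and TBD. The list medians were 0.03, 0.16 and 0.07. Por, the P450 oxidoreductase that all these enzymes need, read 8.43, 8.60, 8.01 and 8.64 in D3T livers and 9.27, 7.60, 7.67 and 8.08 in OLT livers. It read 7.81, 7.84, 8.17 and 8.25 in TBD livers and 9.51, 9.65, 9.71 and 9.82 in vehicle livers. All treated livers were below all vehicle livers, with differences of -1.25, -1.52 and -1.65 (limma adjusted p of 0.00675, 0.00322 and 0.00156). Alas1, the first enzyme of heme synthesis, fell with OLT (-1.62, adjusted p = 0.0282; up to 0.0884 without vehicle replicate 1, 2 or 4 or OLT replicate 2, 3 or 4). Urod, a later enzyme of that pathway, fell with OLT (-0.72, adjusted p = 0.0378) and TBD (-0.76, adjusted p = 0.025). The first call was lost without vehicle replicate 2, 3 or 4 or OLT replicate 2 or 3 (adjusted p of up to 0.119), and the second without vehicle replicate 2 or 4 or TBD replicate 1 or 2 (up to 0.0825).

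Of 27 other P450 genes of families 1 to 4, 24 were tested. With D3T 1 rose and 8 fell, with OLT 3 and 3, and with TBD 3 and 5. Over all genes tested, 4.61%, 2.61% and 2.8% were called higher and 13.1%, 8.92% and 10% lower with D3T, OLT and TBD. The list medians were -0.20, -0.03 and -0.01. Cyp2b2, the classic phenobarbital-inducible P450 of rat liver, read 10.04, 10.61, 10.14 and 10.42 in D3T livers and 13.45, 11.07, 12.70 and 12.06 in OLT livers. It read 11.77, 11.91, 11.38 and 13.24 in TBD livers and 9.57, 10.32, 10.00 and 9.91 in vehicle livers. It rose with OLT (2.37 ± 0.44, limma adjusted p = 0.00316) and TBD (2.12 ± 0.44, adjusted p = 0.00535), and its D3T difference was 0.35 (adjusted p = 0.641). OLT and TBD also gave the called rises of Cyp2c6v1 M14776_f_at, whose D3T difference of 0.41 did not pass. Its D3T livers nevertheless lay above all vehicle livers. D3T minus OLT (limma adjusted p = 0.175) and D3T minus TBD (adjusted p = 0.446) did not pass for it. The other Cyp2c6v1 probe set was not called with OLT or TBD. For Cyp2b2, D3T minus OLT was -2.02 (adjusted p = 0.0425; up to 0.124 without any 1 D3T array or OLT replicate 1, 3 or 4) and D3T minus TBD was -1.77 (adjusted p = 0.0999). Cyp3a23-3a1 rose with OLT (1.07, adjusted p = 0.0018) and TBD (0.84, adjusted p = 0.00589), and its D3T difference was -0.54 (adjusted p = 0.0461; up to 0.125 without vehicle replicate 2, 3 or 4 or D3T replicate 1 or 3). Cyp1a2, the main aromatic amine P450 of liver, fell with D3T (-2.20, adjusted p = 1.55e-04) and TBD (-1.76, adjusted p = 9.69e-04), and its OLT difference was 0.77 (adjusted p = 0.0997). Between compounds, D3T minus OLT was -2.96 for Cyp1a2 (adjusted p = 6.68e-05) and TBD minus OLT was -2.53 (adjusted p = 7.28e-04). Cyp4a1, a fatty acid hydroxylase, fell with all 3 (-1.45, -1.01 and -1.76, adjusted p of 0.00229, 0.0283 and 8.94e-04), and its OLT call was lost without vehicle replicate 2, 3 or 4 or OLT replicate 2 or 4 (adjusted p of up to 0.0951).

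The genes whose values ran most like those of each named P450 were found by the root mean square difference, over the 16 arrays, of the log2 values after subtraction of each probe set's vehicle mean. This was done among 4234 probe sets with 1 symbol outside the 2 subfamilies. Cyp2a1 ran closest to Gstm1, a glutathione transferase (0.42 and 0.43 for its 2 probe sets), and Mif, a cytokine (0.47), where the median over all candidates was 1.29. Gstm1 differed from vehicle by 1.61, 1.33 and 1.26 with D3T, OLT and TBD, beside 1.79, 1.24 and 1.14 for Cyp2a1. Cyp2c7 ran closest to Cat, the peroxisomal catalase (0.18), Cpsf7 (0.22) and Aco1 (0.23), with a median of 0.59. Cat differed by -0.50, -0.33 and -0.66, beside -0.55, -0.35 and -0.77 for Cyp2c7. Cyp2c11 (M18363cds_s_at) ran closest to Serpind1 (0.15), Amy2a3 (0.21) and Cd81 (0.22), with a median of 0.45, and Cyp2a2 to Tgfb3 (0.10), Homer3 (0.11) and Cryba1 (0.11), with a median of 0.32. These are descriptions of probe sets that share their arrays. A small distance for a probe set with no called change means only that both stayed near their vehicle means.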

How the data were processed

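Liver RNA was labelled with biotin and hybridised to 16 1-colour Affymetrix arrays, 1 per animal, 4 in each of the groups D3T, OLT, TBD and vehicle. The values deposited by the authors are on a log2 scale and cover 8740 probe sets; the submitters' processing notes name GCRMA, with no version given in the sources used here. That method usually models background from probe sequence, aligns the arrays by quantiles and then combines the probes of a set, and it compresses changes of dim probe sets. The deposited values ran from -1.21 to 15.9, 0 pairs of arrays were identical, 0 columns belonged to no sample, and scan dates were not used here. The number of arrays limits the precision.

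Gene symbols came from the platform annotation (7006 probe sets with 1 symbol, 308 with several, 1426 with none), and all 11 Cyp2c and Cyp2a genes were matched by Entrez ID to the RefSeq table of assembly GRCr8. Probes of close paralogs can cross-hybridise, as the suffixes _s_at and _f_at mark, so a value of 1 family member is uncertain.

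Testing required a value over the 40th percentile of the array in 4 or more of the 16 arrays, which 5323 probe sets met. Group means were fitted with limma 3.58.1 (R 4.3.3) over all arrays (residual df 12, prior df 2.41, median residual SD 0.195) and checked on simulated data. Tables and figures used Python 3.11.15, pandas 2.3.3 and matplotlib 3.10.9. A gene of a list is its brightest tested probe set. Genes named from each list are up to 3 called per compound with the largest difference, plus Ghr, Stat5b, Socs2, Cish, Igf1, Hnf4a, Nr1i2, Nr1i3, Por and Cyp3a2. The probe sets, gene lists and tests were chosen with earlier results of these data known. Alternatives were other filters, an intensity trend, robust variances, a fit on 8 arrays, a block for the replicate number, quantile normalization applied again, centred array medians, a floor, array weights, stricter thresholds, averages over the probe sets of a gene, and leaving out arrays.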

Additional observations from a re-analysis of the deposited data

Results flagged for a closer look

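In 13 of 88 groups of 4 arrays, over the 22 Cyp2c and Cyp2a probe sets, 1 array stood further from its nearest neighbour than Dixon's 95% critical value allows. Chance alone gives about 1 in 20 such groups, and the probe sets share their arrays. In the vehicle group, Cyp2a1 read 7.03 in replicate 1, below the others at 7.50 to 7.52. The shared Cyp2a1/Cyp2a2 probe set read 10.09 in vehicle replicate 4 (others 9.72 to 9.76), and Cyp2c11 J02657_s_at 13.11 in vehicle replicate 4 (others 12.97 to 12.98). Cyp2c6v1 rc_AA945571_s_at read 13.34 in vehicle replicate 3 (others 12.83 to 12.90), and Cyp2c23 U04733_s_at 11.60 in vehicle replicate 3 (others 11.87 to 11.92). Vehicle replicate 1 was lowest for Cyp2c22 at 10.05 (others 10.75 to 10.86) and for Cyp2c7/Cyp2c7l1 rc_AA945573_f_at at 11.33 (others 11.92 to 11.98).

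In the TBD group, replicate 4 read 12.82 for Cyp2c11 M18363cds_s_at (others 13.57 to 13.69), 12.38 for Cyp2c7/Cyp2c7l1 M31031mRNA_f_at (others 12.73 to 12.75) and 5.77 for Cyp2c12 M33550cds_s_at (others 4.48 to 4.69). This array is also 1 of the 2 that stand apart on the second principal component. TBD replicate 3 read 4.52 for Cyp2c12 J03786_s_at (others 4.66 to 4.68). OLT replicate 3 read 10.09 for Cyp2c22 (others 10.89 to 11.05), and D3T replicate 2 read 12.94 for Cyp2c7/Cyp2c7l1 M31031mRNA_f_at (others 12.66 to 12.70).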

How the results depend on the processing

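The 13 called differences of single probe sets were refitted in 273 alternatives, of which 216 kept the call and 0 reversed it, and 22 further calls appeared among the probe sets not called; 124 of 2225 alternative values of uncalled differences changed sign. Cyp2a1 with D3T (1.65 to 2.03) and OLT (1.03 to 1.45), and Cyp2c6v1 M14776_f_at with OLT (0.75 to 1.08) and TBD (0.75 to 0.88), kept their calls in all 21 alternatives each. Cyp2a1 with TBD lost it in the fit on 8 arrays and at an adjusted p under 0.01, and Cyp2c7 with TBD only at that stricter threshold. Called probe sets with D3T against vehicle numbered 5 as reported, 3 with no filter, 12 with array weights, 1 at an adjusted p under 0.01, 2 at a minimum fold of 1.5, and 2 to 4 without single arrays. With TBD the 3 became 5 after renewed quantile normalization, 1 at an adjusted p under 0.01, and 3 to 5 without single arrays. D3T against OLT (1) gave 0 in the fit on 8 arrays, after quantile normalization, at the stricter threshold and without OLT replicate 1 and TBD replicate 4 (chosen after seeing the data), 2 with centred medians, and 0 to 1 without single arrays. D3T against TBD (1) gave 0 under those same settings, with centred medians and with the replicate block, and 0 to 1 without single arrays. OLT against vehicle (3) gave 2 at an adjusted p under 0.01 and 3 in the other alternatives, and TBD against OLT gave 0 in all that were run. Array weights were estimated without full convergence. Single arrays were left out only from the groups compared. The replicate numbers did not pair the arrays (correlations of same-numbered deviations -0.52 to 0.32); with the replicate block 4, 3 and 4 probe sets were called with D3T, OLT and TBD, 1 in D3T against OLT and 0 in the other 2 pairs. For the gene lists, 292 of 345 alternative counts stayed within 1.5 times: growth hormone genes called with OLT numbered 0 to 3 and with TBD 0 to 5, male-predominant genes with TBD 1 to 5, and female-predominant genes with OLT 0 to 2. With averages over the probe sets of a gene, the growth hormone list had medians of -0.10, -0.12 and -0.22 with D3T, OLT and TBD. Except where the construction shows it (fewer arrays, more probe sets or a stricter threshold), the cause was not tested.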
